A study of Mus musculus with 10 samples.

Results

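Tachykinins are a small family of neuropeptides, and the rows of 4 genes of the family were followed here among the 56691 genes of the deposited table: the precursor genes Tac1 (ENSMUSG00000061762) and Tac2 (ENSMUSG00000025400) and the receptor genes Tacr1 (ENSMUSG00000030043) and Tacr3 (ENSMUSG00000028172). They were chosen by name, by matching the Ensembl identifiers to mouse symbols, and all 4 passed the filter on low values (a mean FPKM of at least 1 over all libraries). RNA was sequenced from the medial habenula of 10 wild-type mice, and the numbers of libraries and of mice are equal in each group. No label ties a library to a mouse, so p-values measure the spread between these libraries. The 6 withdrawal mice had nicotine ditartrate at 4 mg/kg by intraperitoneal injection, 2 times a day for 14 days, then saline from day 15, and the 4 control mice had intraperitoneal saline for 17 days. Tissue was taken on day 17 in both groups. No group stayed on nicotine, so earlier nicotine and its withdrawal cannot be told apart. The strain, age and sex of the mice are not given in the labels, nor is a batch or litter.

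Tac1 encodes the precursor of substance P and neurokinin A, and Tac2 that of neurokinin B, which human genetics calls TAC3. Precursors are cut and amidated inside dense-core vesicles, and the released peptides act on receptors coupled to Gq proteins, with substance P preferring the NK1 receptor (Tacr1) and neurokinin B the NK3 receptor (Tacr3). In the medial habenula, substance P neurons lie dorsally and cholinergic neurons ventrally. Tac1 is used as a marker of the dorsal part and Tac2 of the ventral part, and both parts send axons to the interpeduncular nucleus.

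The sequence just before the start of each gene is shown so that the 4 genes, which are followed side by side below, can be compared. The 250 bases before the start of all 4 genes were found in RefSeq (build GRCm38.p6, which is not the build of the counts) and are written 5′ to 3′. Capitals mark matches on either strand to the half-site of the cyclic AMP response element (TGACG or CGTCA), the palindromic E-box (CACGTG), the TATA box (TATAAA or TTTATA) and the homeodomain-type core TAATTA; no 2 matches overlapped.
Tac2, chr10:127724228-127724477, plus strand: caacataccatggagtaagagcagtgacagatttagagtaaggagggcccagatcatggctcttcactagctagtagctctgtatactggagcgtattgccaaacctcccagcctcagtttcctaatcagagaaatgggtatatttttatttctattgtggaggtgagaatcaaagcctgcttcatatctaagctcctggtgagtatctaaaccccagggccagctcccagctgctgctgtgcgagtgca
Tac1, chr6:7554811-7555060, plus strand: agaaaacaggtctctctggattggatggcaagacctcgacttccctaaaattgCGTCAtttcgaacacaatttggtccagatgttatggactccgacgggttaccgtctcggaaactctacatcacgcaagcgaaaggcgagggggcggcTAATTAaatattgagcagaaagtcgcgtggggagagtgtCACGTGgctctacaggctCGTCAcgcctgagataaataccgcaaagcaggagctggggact
Tacr1, chr6:82402225-82402474, plus strand: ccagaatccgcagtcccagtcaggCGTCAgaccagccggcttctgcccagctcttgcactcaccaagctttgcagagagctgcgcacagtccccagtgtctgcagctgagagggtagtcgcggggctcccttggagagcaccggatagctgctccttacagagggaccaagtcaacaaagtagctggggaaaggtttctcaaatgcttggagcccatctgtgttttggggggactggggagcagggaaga
Tacr3, chr3:134828757-134829006, plus strand: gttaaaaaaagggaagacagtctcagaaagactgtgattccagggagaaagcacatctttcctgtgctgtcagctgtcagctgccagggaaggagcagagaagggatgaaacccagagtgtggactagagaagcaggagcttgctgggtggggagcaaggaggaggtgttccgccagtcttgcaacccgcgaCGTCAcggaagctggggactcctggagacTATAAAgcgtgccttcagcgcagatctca
The Tac2 window held none of these letters. The Tac1 window held 2 half-sites, 1 E-box and 1 TAATTA, the Tacr1 window 1 half-site, and the Tacr3 window 1 half-site and 1 TATA box that began 29 bases before the start. Among 32851 windows of the same length, the half-site was in 17.8%, the E-box in 6.02%, the TATA box in 12.4% and TAATTA in 4.84%. A match describes the letters only, and no binding was measured.

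Library totals ran from 15023448 to 22026333 counts, and levels of 1 gene between libraries are given as CPM (counts scaled to library size with TMM factors). The labels disagree on the material: a source label has cholinergic neurons taken by FACS, while the series record has brain tissue. Chat, the enzyme that makes acetylcholine, and Pou4f1 lay between 26.4 and 40.3 CPM and between 94.2 and 156 CPM in 8 libraries, but control 2 and withdrawal 2 had only 0.164 and 0.199 CPM of Chat and 0.272 and 1.14 CPM of Pou4f1. Control 2 and withdrawal 2 thus went against their label. The tests between groups on the members, their ratios and the pathway counts are given with and without them, and the order of levels and the correlations for the other 8 only. Transcripts of cells a cholinergic sort would remove were present in every library, such as the astrocyte gene Gfap (225 to 640 CPM). In these bulk libraries, fewer cells of a type and less RNA per cell cannot be told apart.

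In the 8 libraries with abundant habenula transcripts, Tac2 was the most abundant member per gene length and Tacr3 the least. As deposited FPKM (fragments scaled by gene length and library size), Tac2 was 72.6, 74.3 and 99.5 in controls 1, 3 and 4, and 57.4, 95.1, 102, 93.0 and 98.1 in withdrawal 1, 3, 4, 5 and 6. Tac1 was 7.95, 7.84 and 11.1 FPKM in these controls and 6.50, 11.7, 9.73, 8.94 and 12.9 FPKM in these withdrawal libraries. The Tac2 level exceeded the Tac1 level in 8 of 8 libraries, by a median of 9.06-fold (range 7.61 to 10.5). Tacr1 lay between 5.92 and 8.88 FPKM and Tacr3 between 0.18 and 2.90 FPKM. Neighbours in this order were Tac1 and Tacr1, whose ranges overlapped: Tac1 was higher in 8 of 8 libraries, but by 1.007-fold to 1.47-fold. Tacr1 exceeded Tacr3 in 8 of 8 libraries, with ratios of FPKM from 2.42 to 34.6.

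**Figure D1:**
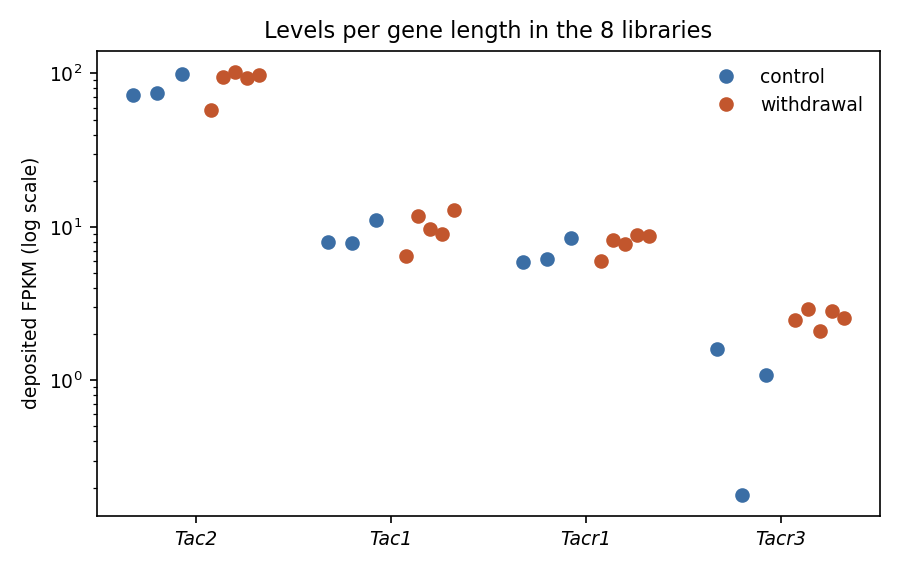
Deposited FPKM (log axis) of the 4 genes in the 8 libraries with abundant habenula transcripts; each point is 1 library, blue for 3 controls and orange for 5 withdrawal libraries. Tac2 lies between 57.4 and 102 FPKM and Tacr3 between 0.18 and 2.90 FPKM, and the points of Tac1 and Tacr1 overlap.

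The other family genes were scarce. Tac4, which encodes hemokinin, had 0 counts in 6 of 10 libraries, and its highest value was 15 counts in withdrawal 3. Tacr2, the receptor that prefers neurokinin A, had 0 to 6 counts in every library. Neither passed a mean of 10 counts, and no test was made for them.

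All 4 members were low in both libraries that lacked habenula transcripts, and Tac1 least so in control 2. Tac2 stood at 1.25% of the median of the other 8 libraries (126.5 CPM) in control 2 and to 1.06% in withdrawal 2, at 1.58 and 1.34 CPM. Tacr1 was at 1.36 and 2.58 CPM (2.72% and 5.15% of its median of 50.1 CPM). Tac1 was at 6.32 CPM in control 2 (116 counts, 20.3% of its median of 31.1 CPM) and at 1.74 CPM in withdrawal 2 (5.60%). Tacr3 had 0 counts in control 2, which allows up to 0.163 CPM (3 counts), and 6 counts in withdrawal 2. Control 2 therefore held Tac1 with little Tac2: its Tac1 to Pou4f1 count ratio was 23.2, against 0.218 to 0.270 in the 8 libraries. Markers of other neurons were high in control 2 beside this Tac1: the summed hippocampal and cortical list (8 of 8 genes with at least 10 counts) was 2734 CPM against 365 to 1043 CPM in the 8 libraries, and the summed GABAergic list (8 of 9 genes) 960 CPM against 142 to 419 CPM. In withdrawal 2, with little Tac1, these sums were 666 and 1098 CPM. The striatal projection neuron list, of whose cells only some also make Tac1, summed to 144 to 265 CPM in the 8 libraries, to 124 CPM in control 2 and to 327 CPM in withdrawal 2. The part of these cells in the Tac1 signal was not tested.

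The comparison asked whether tachykinin transcripts differ in the medial habenula in withdrawal. Over all 10 libraries none of the 4 members changed in edgeR, against 31 of 14928 genes tested (0.208%, with 0.0335% higher and 0.174% lower). In edgeR 0 of the 4 had an unadjusted p under 0.05, against 15.4% of genes tested. DESeq2 (2.55% of genes called, 1.01% as higher) and limma on log2(FPKM + 1) (0.0804%, and 0.00670% as higher) also called 0 of the 4. The groups overlapped for all 4, where 1.62% of genes tested were higher and 1.69% lower in every withdrawal library than in any control. The median log2 change of the 4 was 0.30, against 0.0034 for all genes tested, and all 4 fitted changes were above 0, as were 50.6% of those tested. This was not particular to the members: in a list of 11 shared habenula genes, Pou4f1 among them, 11 were above 0 (median 0.27). The log2 change of Tac1 was 0.21 (95% interval -1.31 to 1.72), of Tac2 0.25 (-2.07 to 2.58), of Tacr1 0.34 (-1.55 to 2.24) and of Tacr3 1.59 (-0.69 to 3.87), with edgeR adjusted p of 0.900, 0.920, 0.862 and 0.453. Without control 2 alone, the signs of the first 3 turned, to -0.12, -0.16 and -0.064.

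**Figure D2:**
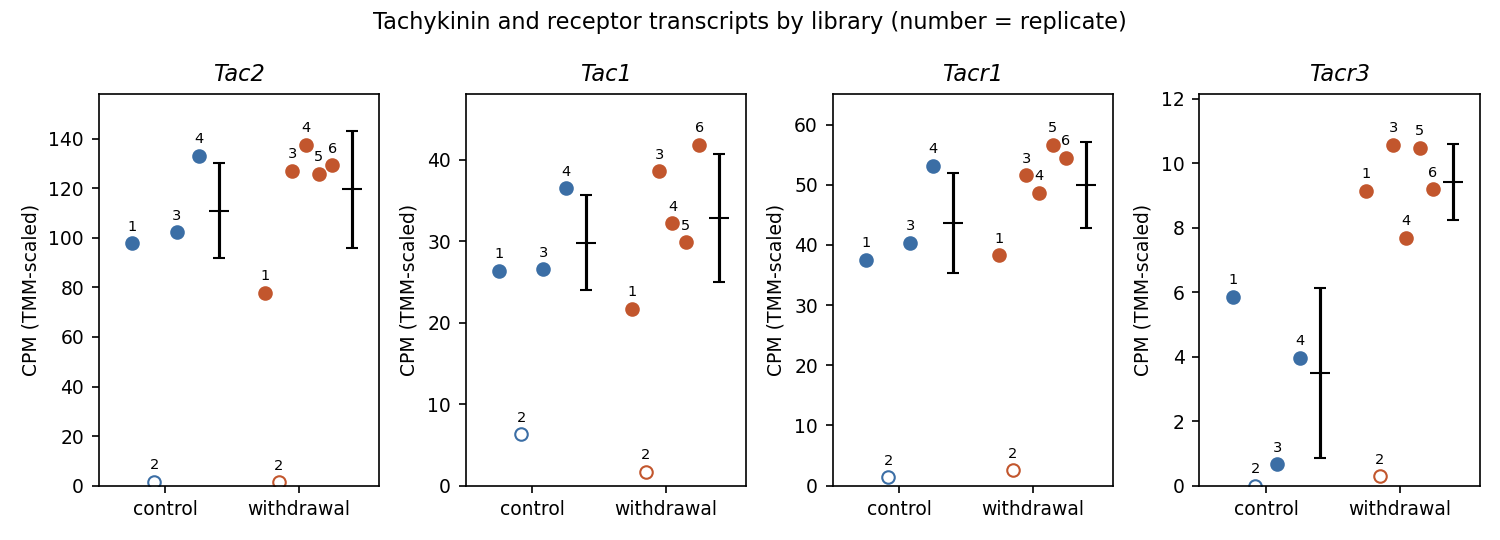
CPM of the 4 genes by library, 1 panel per gene with its own axis from 0; numbers give the replicate, open points control 2 and withdrawal 2, and bars the mean and SD of the filled points (3 controls, 5 withdrawal). The groups overlap for Tac2, Tac1 and Tacr1, and for Tacr3 the filled withdrawal points (7.69 to 10.6 CPM) lie above the filled controls (0.666 to 5.86 CPM).

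Among the 8 libraries with abundant habenula transcripts, the groups overlapped for both peptide precursors, and neither passed the test. Tac1 was 26.4, 26.6 and 36.5 CPM in controls 1, 3 and 4 and 21.7, 38.6, 32.3, 29.9 and 41.9 CPM in withdrawal 1, 3, 4, 5 and 6. The withdrawal libraries lay on both sides of the controls, with means of 29.9 ± 5.80 CPM (SD, n = 3) and 32.9 ± 7.87 CPM (SD, n = 5). Its log2 change was 0.13 (95% interval -0.32 to 0.57, edgeR adjusted p = 0.700). Tac2 was 97.8, 102 and 133 CPM in these controls and 77.9, 127, 138, 126 and 129 CPM in these withdrawal libraries. Withdrawal 1 was the lowest of the 8 and control 4 the second highest, with means of 111 ± 19.3 CPM (SD, n = 3) and 119.5 ± 23.7 CPM (SD, n = 5). The log2 change of Tac2 was 0.098 (95% interval -0.29 to 0.49, edgeR adjusted p = 0.742).

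Of the receptor genes, Tacr3 was the one whose groups did not overlap in these 8 libraries. Tacr1, the substance P receptor, was 37.5, 40.3 and 53.1 CPM in the controls and 38.3, 51.6, 48.7, 56.7 and 54.5 CPM in withdrawal 1, 3, 4, 5 and 6. The groups overlapped, and the log2 change was 0.18 (95% interval -0.14 to 0.50, edgeR adjusted p = 0.417). Tacr3, the neurokinin B receptor, was 5.86, 0.666 and 3.97 CPM in controls 1, 3 and 4 (90, 11 and 86 counts) and 9.16, 10.6, 7.69, 10.5 and 9.20 CPM in withdrawal 1, 3, 4, 5 and 6 (133 to 215 counts). All 5 withdrawal libraries lay above all 3 controls, as they did for 11.9% of genes tested (11.5% the other way). The means were 3.50 ± 2.63 CPM (SD, n = 3) and 9.43 ± 1.19 CPM (SD, n = 5), and the log2 change was 1.43 (SE 0.452, 95% interval 0.41 to 2.44).

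Tacr3 missed the threshold in edgeR's quasi-likelihood test (adjusted p = 0.0644), which 14.0% of genes tested passed in these libraries. In edgeR 0 of the 4 members were thus called, and 1, Tacr3, was under 0.05 before adjustment, against 30.9% of genes tested. The fitted changes of all 4 were above 0 (median 0.156), as were 51.3% of those tested. So were those of 11 of 11 shared habenula genes (median 0.108). Tacr3 passed in DESeq2 (log2 change 1.43, adjusted p = 0.00976; 19.4% of genes called, 9.25% as higher) and in limma on log2(FPKM + 1), whose changes are on that scale (0.94, adjusted p = 0.0307; 13.1% of genes called, 7.04% as higher). Neither tool called Tac1, Tac2 or Tacr1. Control 3, with 11 counts, set much of the size and the spread: without it the log2 change was 0.95 (edgeR adjusted p = 0.0318), and without control 1 it was 1.96 (edgeR adjusted p = 0.0404). Without any one of the other 6 libraries the edgeR adjusted p lay between 0.0643 and 0.123. Tacr3 passed the filter on low values through the withdrawal libraries: its mean FPKM was 0.715 in the 4 controls and 2.16 in the 6 withdrawal libraries. With a filter on a mean of 10 counts in its place, the edgeR adjusted p was 0.0638 in the 8 libraries. The choice of these 8 libraries was made with the data known.

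Summed markers of some other neurons, thalamic and hippocampal and cortical, also differed between the groups in these 8 libraries, and this was not particular to neurons. The lateral habenula sums overlapped (609 to 784 CPM in controls and 700 to 803 CPM in withdrawal), as did the GABAergic and striatal projection neuron sums. Astrocyte sums were 2913 to 3440 CPM in controls and 2222 to 2586 CPM in withdrawal. Oligodendrocyte sums were 10970 to 12190 CPM and 5812 to 9921 CPM, while microglia sums overlapped. The summed thalamic neuron list (7 of 7 genes measured, of which the habenula also expresses Slc17a6 and Calb2) was 624 to 974 CPM in the 3 controls and 1013 to 1601 CPM in the 5 withdrawal libraries. In edgeR 3 of these 7 passed as higher, Lef1, Slc17a6 and Calb2, against 6.36% of genes tested. The summed hippocampal and cortical list was 540 to 1043 CPM in the controls and 365 to 454 CPM in withdrawal. Of its 7 tested genes 4 passed as lower in edgeR, against 7.63% of genes tested. Control 3, the library with the least Tacr3 of the 8, had the lowest thalamic sum (624 CPM) and the highest hippocampal and cortical sum (1043 CPM) of the 8. No marker of either list was at 0 in control 2 or withdrawal 2. The thalamic sum of control 2, which had 0 counts of Tacr3, was only 71.7 CPM. In withdrawal 2 the thalamic sum was 603 CPM, close to that of control 3, and Tacr3 was at 0.298 CPM. The part of tissue content in the Tacr3 difference was not tested.

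**Figure D3:**
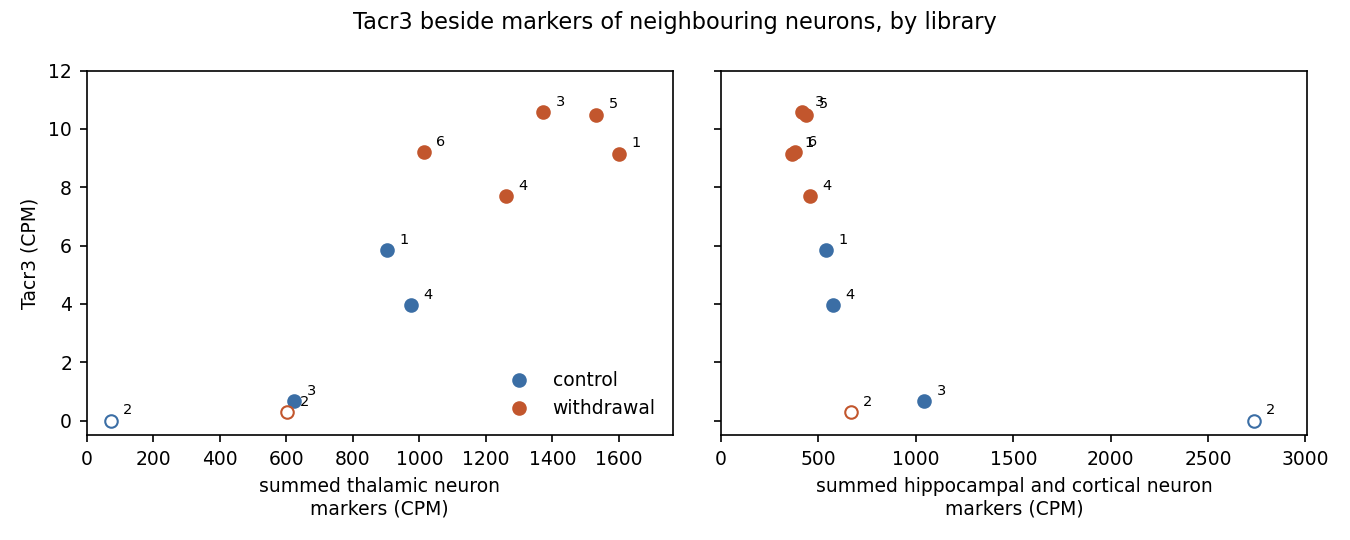
Tacr3 in CPM against the summed CPM of thalamic neuron markers (left) and of hippocampal and cortical neuron markers (right), 1 point per library with its replicate number, open for control 2 and withdrawal 2. Among filled points the withdrawal libraries have more Tacr3, larger thalamic sums (1013 to 1601 CPM) and smaller hippocampal and cortical sums (365 to 454 CPM) than the controls.

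The Tac1 to Tac2 ratio, which sets the dorsal against the ventral marker within each library, showed no difference between the groups that passed the test. Tac1 made up 21.3% of the summed Tac1 and Tac2 counts in control 1 (exact binomial 95% interval 19.4% to 23.2%), 20.6% in control 3 (18.9% to 22.4%) and 21.5% in control 4 (20.2% to 22.9%). In withdrawal it was 21.8% in library 1 (19.9% to 23.9%), 23.3% in library 3 (21.9% to 24.8%), 19.0% in library 4 (17.6% to 20.5%), 19.2% in library 5 (17.8% to 20.6%) and 24.5% in library 6 (23.0% to 26.0%). The 3 controls fell inside the range of the 5 withdrawal libraries. The mean share was 21.2% ± 0.456 (SD, n = 3) in controls and 21.6% ± 2.45 (SD, n = 5) in withdrawal. The intervals of withdrawal 4 and withdrawal 6 do not overlap, so libraries of the same group differed beyond counting error. Such intervals cover counting error only. The ratio rests on 1 gene pair. In the 8 libraries the summed list of 7 other dorsal genes was 330 to 376 CPM in controls and 382 to 451 CPM in withdrawal. The summed ventral cholinergic list overlapped, at 332 to 374 CPM and 313 to 402 CPM. In edgeR 0 genes of either list passed there. Control 2, with few habenula transcripts, had a dorsal sum of 431.5 CPM and, with 3 counts of Chat, a ventral sum of 480.4 CPM. Neither sum thus measures habenula transcripts alone. The cause of the difference in dorsal sums was not tested.

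In control 2 and withdrawal 2 the order turned, with Tac1 at 80.0% (72.6% to 86.2%) of 145 counts and at 56.5% (43.3% to 69.0%) of 62 counts. Over all 10 libraries the mean log2 ratio of Tac1 to Tac2 counts (0.5 counts added to each) was -0.93 ± 1.94 (SD, n = 4) in controls and -1.50 ± 0.933 (SD, n = 6) in withdrawal. The difference was -0.57 (exact 2-sided permutation p = 0.633 over 210 splits, 0.633 adjusted over 5 ratios). Without both libraries the means were -1.90 ± 0.0392 (SD, n = 3) and -1.87 ± 0.209 (SD, n = 5). The difference was then 0.028 (exact permutation p = 0.804 over 56 splits, adjusted p = 0.839), and the smallest p that 56 splits allow is 0.0179.

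**Figure D4:**
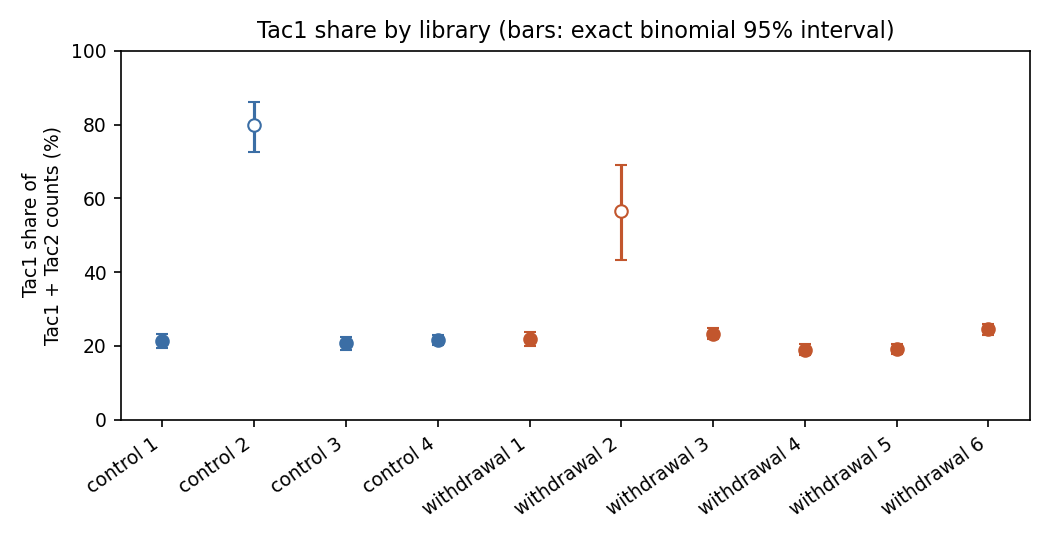
Tac1 as a percentage of Tac1 plus Tac2 counts in each library, with exact binomial 95% intervals; blue are controls, orange withdrawal libraries, and open points control 2 and withdrawal 2. The 8 filled points lie between 19.0% and 24.5%, and the open ones at 80.0% and 56.5%.

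Against habenula transcripts of the same library, the precursors held a narrow range in the 8 libraries. The Tac2 to Pou4f1 count ratio was 0.899, 0.841 and 0.884 in controls 1, 3 and 4 and 0.826, 0.817, 0.937, 0.919 and 0.833 in withdrawal 1, 3, 4, 5 and 6. The Tac1 to Pou4f1 count ratio was 0.243, 0.219 and 0.242 in the controls and between 0.218 and 0.270 in withdrawal. The groups overlapped in both, and the log2 differences were -0.015 and 0.013 (exact permutation p = 0.839 for each, adjusted p = 0.839). The Tac2 to Chat count ratio, of a ventral peptide to a ventral enzyme, was 3.53, 3.36 and 3.74 in the controls and 2.95, 3.19, 3.41, 3.13 and 3.32 in withdrawal. Its log2 difference was -0.15 (exact permutation p = 0.0536, adjusted p = 0.268), with 1 withdrawal library, withdrawal 4, above the lowest control. The Tac1 to Chat log2 difference was -0.12 (exact permutation p = 0.411, adjusted p = 0.839). Over all 10 libraries the 4 log2 differences were -0.60, -1.17, -0.30 and -0.87 in the same order, with an adjusted exact permutation p of 0.633 each.

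For the receptors, the ratios were chosen after the values had been seen. The Tacr1 to Pou4f1 log2 difference was 0.090 in the 8 libraries (exact permutation p = 0.411, 0.657 adjusted over 8 ratios). The Tacr3 to Pou4f1 count ratio was 0.0538, 0.00548 and 0.0264 in controls 1, 3 and 4, and 0.0972, 0.0680, 0.0524, 0.0766 and 0.0593 in withdrawal 1, 3, 4, 5 and 6. Withdrawal 4 lay just below control 1, so the groups overlapped on this scale, and the log2 difference was 1.78 (exact permutation p = 0.0357, adjusted p = 0.143). Without control 3 as well it was 0.87 (exact permutation p = 0.0952). The Tacr3 to Tacr1 log2 difference was 1.69 (exact permutation p = 0.0179, the smallest that 56 splits give, and 0.143 adjusted), and 0.81 without control 3 as well. Over all 10 libraries the log2 differences were -0.41 for Tacr1 to Pou4f1, 1.57 for Tacr3 to Pou4f1 and 1.98 for Tacr3 to Tacr1 (exact permutation p of 0.662, 0.0714 and 0.00952, adjusted p of 0.662, 0.286 and 0.0762). The Tacr3 ratios of control 2 rest on 0 counts of Tacr3 and on the 0.5 counts added.

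**Figure D5:**
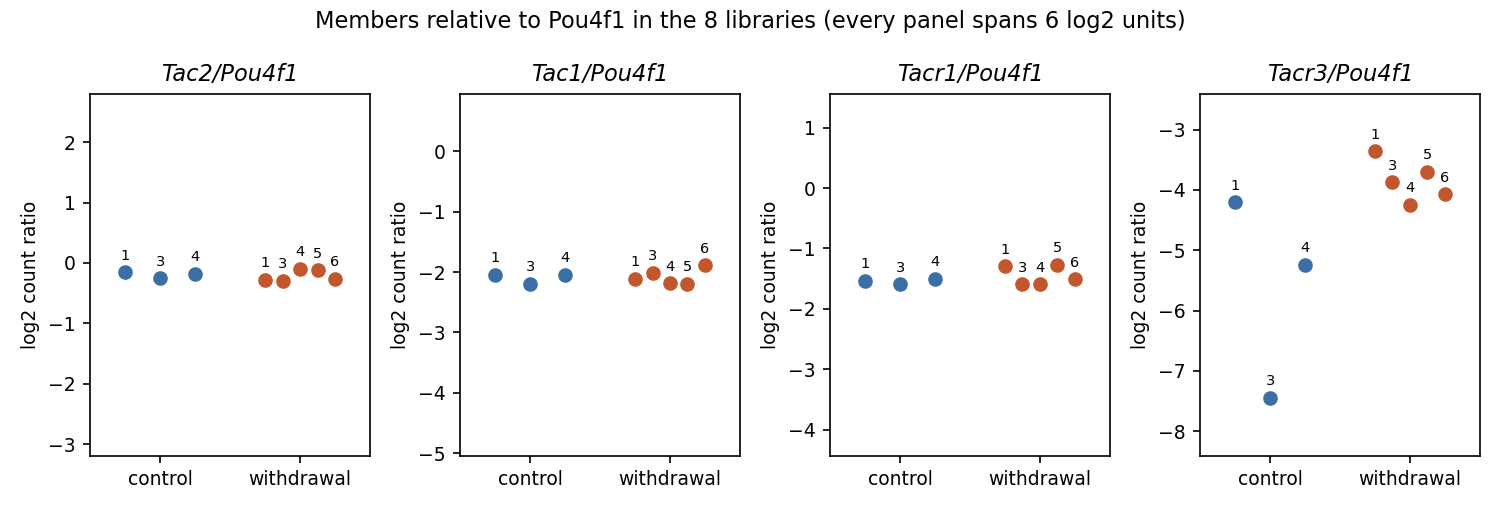
Log2 ratio of each gene's counts to Pou4f1 counts in the 8 libraries (0.5 counts added to each), 1 point per library with its replicate number; the panels have different origins and the same span of 6 log2 units. Tac2, Tac1 and Tacr1 lie in a narrow band in both groups, and Tacr3 spreads from -7.45 in control 3 to -3.36 in withdrawal 1.

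Across the 8 libraries Pearson's r with Pou4f1 passed the test for Tac1, Tac2 and Tacr1, and by rank only that of Tac1 did. No relation of Tacr3 with Pou4f1 or with another member passed, and whether the members differ in this was not tested. On log2 CPM, Pearson's r with Pou4f1 was 0.95 for Tac1 (exact permutation p = 4.96e-05, adjusted p = 4.96e-04 over 10 relations), 0.96 for Tac2 (exact permutation p = 0.00151, adjusted p = 0.00757) and 0.88 for Tacr1 (exact permutation p = 0.00759, adjusted p = 0.0190). Spearman's rho was 0.98, 0.76 and 0.67, with adjusted exact permutation p of 0.00397, 0.122 and 0.166. Leaving out withdrawal 1 and control 1, the libraries farthest from the median of Pou4f1, r was 0.94, 0.85 and 0.71. For Tacr3, r with Pou4f1 was 0.16 and rho 0.43 (exact permutation p = 0.750 and 0.299; adjusted p = 0.750 and 0.374), and r was 0.79 without those 2 libraries, above the 0.71 of Tacr1. Among the members, r was 0.87 for Tac1 with Tac2, 0.81 for Tac1 with Tacr1 and 0.86 for Tac2 with Tacr1 (adjusted exact permutation p of 0.0145, 0.0330 and 0.0218). For these pairs Spearman's rho was 0.79, 0.71 and 0.57 (adjusted exact permutation p of 0.122, 0.144 and 0.252), and r fell to 0.64, 0.62 and 0.76 without the 2 farthest libraries. Tacr3 had r of 0.25, 0.18 and 0.40 with Tac1, Tac2 and Tacr1 and rho of 0.38, 0.048 and 0.48 (exact permutation p from 0.243 to 0.935, adjusted p from 0.347 to 0.935), and r of 0.34, 0.26 and 0.68 without controls 3 and 4. The amount of habenula tissue in each library was not measured on its own, and its part in these values was not tested. Relations of Tacr3 with the thalamic and with the hippocampal and cortical sum could not be tested, since the groups separate on them and neither has 6 libraries.

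The genes with the most similar pattern over the 8 libraries differed by member. For Tac2 they were Xkr7, the nicotinic receptor subunit gene Chrnb3, Aifm3, Vav2 and Fibcd1 (Pearson's r from 0.97 to 0.98). For Tacr1 they were the Wnt receptor gene Fzd1, the habenula transcription factor genes Irx1 and Irx2, Prkar2a, which encodes a regulatory subunit of protein kinase A, and Necab3 (r from 0.97 to 0.99). For Tac1 they were Slc38a8, Ang, Chp2, Dlec1 and Kctd10 (r from 0.96 to 0.97), of which Slc38a8 encodes an amino acid transporter and Ang a ribonuclease. For Tacr3 they were Zfp462, Car8, Ocrl, Zdbf2 and G6pc3 (r from 0.98 to 0.99). These are the highest of 14928 values over 8 libraries and are given as a description.

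Other genes of the tachykinin pathway were followed in 5 lists of 48 genes, of which 45 were tested: peptide processing, dense-core vesicles, peptide breakdown, Gq signalling and receptor desensitization. Over all 10 libraries none passed in edgeR, DESeq2 or limma, and 5, 9 and 8 had an unadjusted p under 0.05. These are 11.1%, 20% and 17.8% of the 45, against 15.4%, 17.9% and 15.2% of all genes tested. The median log2 change of the 45 was 0.019, against 0.0034 for all genes tested. The smallest unadjusted p were those of Chga, Grk3, Qpct, Itpr2 and Thop1 (edgeR adjusted p from 0.264 to 0.290). In the 8 libraries 7 of the 45 rose (15.6%, against 6.36% of genes tested) and 2 fell (4.44%, against 7.63%), and the median log2 change was 0.10, against 0.0077 for all genes tested. Some glial transcripts also differed between the groups in these 8 libraries. In edgeR 5 of 6 oligodendrocyte, 3 of 6 astrocyte and 0 of 6 microglia markers were called lower in withdrawal. The part of glia in the list values was not tested.

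Of the 7 peptide processing genes, 2 rose in the 8 libraries and 0 fell. Among all genes tested there, 6.36% rose and 7.63% fell, and counts of single lists were not tested against these shares. Scg5, the chaperone of the convertase PC2, rose from 98.6 ± 4.28 CPM (SD, n = 3) to 147 ± 11.4 CPM (SD, n = 5), a log2 change of 0.57 (edgeR adjusted p = 0.00203). Pcsk1n, an inhibitor of the convertase PC1, rose by 0.55 on the log2 scale, with 148 ± 11.9 and 218 ± 35.3 CPM (edgeR adjusted p = 0.0212). Without control 3 its adjusted p was 0.0868, and its log2 change lay between 0.48 and 0.61 in all 8 settings that left out 1 library. For the carboxypeptidase gene Cpe the change was 0.23 (edgeR adjusted p = 0.0524), and for Pam, which amidates the peptides, it was 0.077 (edgeR adjusted p = 0.599). Of 10 dense-core vesicle genes 3 rose and 0 fell: the vesicle synaptotagmin gene Syt4 (log2 change 0.52, edgeR adjusted p = 0.00732) and the granin genes Chga (0.50, 0.0183) and Scg2 (0.33, 0.0344). Without control 3 the adjusted p of Chga was 0.0715, and Scg2 was called in 3 of the 8 settings that left out 1 library.

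Of 8 tested peptide breakdown genes 1 rose and 0 fell. For this and the next 2 lists too, the shares of all genes tested were 6.36% higher and 7.63% lower. The gene that rose was Ece2, an endothelin-converting enzyme gene, at 26.8 ± 0.541 CPM (SD, n = 3) and 34.8 ± 1.85 CPM (SD, n = 5), with a log2 change of 0.37 (edgeR adjusted p = 0.00831). Mme, which encodes neprilysin, a main substance P peptidase, differed by -0.017 on the log2 scale (edgeR adjusted p = 0.932). Of 13 tested Gq signalling genes 2 fell and 0 rose. Prkca, a protein kinase C gene, fell by 1.34 on the log2 scale, with 190 ± 82.2 and 75.3 ± 10.1 CPM (edgeR adjusted p = 0.00732), and Plcb1, a phospholipase C gene, fell by 0.75, with 93.3 ± 32.1 and 55.8 ± 3.26 CPM (edgeR adjusted p = 0.0210). Both are also expressed by hippocampal and cortical neurons, whose markers were higher in the 3 controls (540 to 1043 CPM against 365 to 454 CPM), and the part of those cells was not tested. Without withdrawal 5 the adjusted p of Plcb1 was 0.0530. Of 7 receptor desensitization genes 1 rose and 0 fell: Grk3, a receptor kinase gene, at 101 ± 6.80 and 148.5 ± 17.4 CPM (log2 change 0.55, edgeR adjusted p = 0.00882). Scg5, Syt4, Ece2, Prkca and Grk3 were called in all 8 settings that left out 1 library. Over all 10 libraries none of the 9 genes named as called passed in edgeR (adjusted p from 0.264 to 0.548). Their log2 changes there were 0.35 for Scg5, 0.31 for Pcsk1n, 0.51 for Syt4, 0.41 for Chga, 0.24 for Scg2, 0.54 for Ece2, 0.43 for Grk3, -1.32 for Prkca and -0.91 for Plcb1.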

How the data were processed

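Reads had been handled with cutadapt 1.9.1, HISAT2 2.2.1 (build mm39) and HTSeq 0.6.1, per the submitters' processing notes; the annotation, strand setting and gene lengths are not given in the sources used here. The deposited table held raw read counts per gene, per the file headers, and the authors' FPKM, as its column names state. Without strand, reads of overlapping antisense genes cannot be told apart. Symbols from GENCODE M21 named 52073 of 56691 identifiers. Total counts per library were 15023448 to 22026333.

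The 14928 genes whose FPKM averaged 1 or more were tested with edgeR 4.0.16 (quasi-likelihood, TMM, R 4.3.3), 2-sided; p was adjusted across all of them (Benjamini-Hochberg), with 0.05 as threshold. SE were taken from the log2 change and the F statistic, and intervals used its degrees of freedom. DESeq2 1.42.0 and limma 3.58.1 on log2(FPKM + 1), other filters, total-count scaling, left-out libraries and a replicate block were alternatives. Ratios were tested by exact 2-sided permutation over the libraries. The scripts were tested on simulated data. The members, lists, the 8 libraries and tests were chosen with earlier results of these data known. Named genes were the family, Chat, Pou4f1, up to 3 genes per pathway list by unadjusted p (others, such as Pam and Mme, were named for their role after their values were seen), abundant markers, and the 5 most correlated genes per member (log2 CPM, prior count 2), without predicted genes.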

Additional observations from a re-analysis of the deposited data

Results flagged for a closer look

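Control 2 and withdrawal 2 stood far from the rest of their group in 14 values among 24 sets of 4 or 6 libraries, by the gap to the nearest library over the group's range. Chance gives about 1 such set in 20, but these sets share libraries and genes. Control 2 and withdrawal 2 were already known to have little Chat and Pou4f1, so the ratios to these genes cannot be read against that rate. In CPM, withdrawal 2 was low for Tacr1 (2.58, next 38.3) and Tacr3 (0.298, next 7.69). On log2 count ratios, control 2 was high for Tac1 to Tac2 (1.98), Tac1 to Pou4f1 (4.41), Tac2 to Pou4f1 (2.42), Tac1 to Chat (5.06), Tac2 to Chat (3.08) and Tacr1 to Pou4f1 (2.21). Withdrawal 2 was high for Tac1 to Tac2 (0.37), Tac1 to Pou4f1 (0.60), Tac1 to Chat (2.98), Tac2 to Chat (2.61), Tacr1 to Pou4f1 (1.16) and Tacr3 to Pou4f1 (-1.85). The ratios to Pou4f1 and Chat rest on 5 and 3 counts of these genes in control 2 and on 23 and 4 counts in withdrawal 2.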

How the results depend on the processing

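The causes of the changes below were not tested. Leaving out 1 library, the log2 change ranged from -0.12 to 0.49 for Tac1, -0.16 to 0.57 for Tac2, -0.064 to 0.67 for Tacr1 and 1.17 to 2.32 for Tacr3, the first 3 being below 0 without control 2 only. The 31 genes called became 4 to 893 without 1 library (34 without control 2, 893 without withdrawal 2 and 4 to 10 without any one of the other 8), 2088 without both control 2 and withdrawal 2, 380 with DESeq2, 12 with limma and 6 with total-count scaling (0 higher and 6 lower, against 5 and 26). That scaling moved the median log2 change of all genes to 0.078, and limma to 0.070.

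Log2 ratio differences without 1 library ranged from -0.94 to 0.40 for Tac1 to Tac2, -1.74 to 0.46 for Tac1 to Pou4f1, -0.83 to 0.058 for Tac2 to Pou4f1, -1.40 to 0.41 for Tac1 to Chat, -0.46 to 0.0086 for Tac2 to Chat and -0.85 to 0.53 for Tacr1 to Pou4f1. Each was above 0 without control 2 only. Without both libraries 3 signs turned: Tac1 to Tac2 0.028, Tac1 to Pou4f1 0.013 and Tacr1 to Pou4f1 0.090. In the 8 libraries, leaving out 1 more gave -0.033 to 0.084 for Tac1 to Tac2, -0.037 to 0.042 for Tac1 to Pou4f1 and -0.044 to 0.0056 for Tac2 to Pou4f1. For Tacr3 in the 8 libraries it gave a log2 change of 0.95 to 1.96, and DESeq2 gave 1.43 and limma 0.94; the genes called ranged from 872 to 2911 (2088 in all 8).

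Correlations of deviations between same-numbered libraries were 0.030, 0.305, -0.128 and 0.278, and those between differently numbered libraries ran from -0.502 to 0.459. These few values cannot decide whether the numbers pair the samples, and no label states a pairing. A replicate block compares only libraries whose number occurs in both groups, so withdrawal 5 and withdrawal 6 do not inform its differences. With it the log2 change was -0.37 for Tac1 and -0.029 for Tac2 in the fit of all 10 libraries, and 0 genes were called. The Tac1 to Tac2 difference was -0.39 (exact permutation p = 0.625, smallest possible 0.125). In the 8 libraries the block gave 951 genes and, for Tacr3, 1.56 (edgeR adjusted p = 0.161). Over all results and alternatives, 279 values kept direction and side of the threshold or their size, 22 reversed, 19 counts moved and 4 passed that had not. The 10-library log2 FPKM ratios with Tacr3 could not be formed, since Tacr3 is listed at 0 in control 2. Control 3 had 11 counts of Tacr3, which limits that comparison.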
